A study of Picea glauca with 69 samples.

Results

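Gibberellin 20-oxidase (GA20ox) was 1 of 5 transcripts of the gibberellin pathway measured by real-time quantitative PCR in seedlings of white spruce (Picea glauca), a boreal conifer. Its members here are the normalized GA20ox value and the 3 GA20ox wells of every seedling, chosen by gene name: 69 seedlings and 207 wells, 1 gene of 5. The files give the gene as Gibberellin 20-oxidase with the identifier HQ408573.1, and the protocol names it PgGA20ox1. The seedlings fall into 3 breeding strategies. Controlled crosses (CC) have 2 numbered parents in their titles and comprise 18 seedlings of 6 families. Polymix pollination (PM), in which a tree receives a mixture of pollen, comprises 21 seedlings of 6 families. Open pollination (OP), the study's control, comprises 30 seedlings of 8 families. Titles 754_OP, 754_PM and 927_OP hold 6 seedlings each and the other titles 3, whereas the design text counts 23 families of 3. Trees 122, 129, 138, 193, 754 and 927 are named first in a CC, a PM and an OP title each, and OP titles 96 and 154 have no CC or PM counterpart.

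All 69 seedlings were untreated plants in their second growing season, raised in 1 greenhouse at no more than 25 °C by day and 18 °C by night with 16 h of light, until day 92. The design text describes randomized complete blocks, but no label gives a seedling's block. The labels name needles as the tissue while the extraction protocol names the apical internode, and no tissue marker was measured that could be set against either. Repetitions 4 to 6 of 754_PM have the sample type of a control but PM in title and strategy, and they were kept as PM. No label says how many mother or pollen trees stand behind a polymix or open-pollinated lot beyond the tree in the title. In bulk tissue, fewer cells that transcribe a gene and less RNA per cell cannot be told apart.

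Gibberellins are diterpenoid hormones that drive stem elongation in seed plants. GA20ox is a 2-oxoglutarate-dependent dioxygenase that oxidizes the same carbon of its substrate in successive rounds and so makes the direct precursors of active gibberellin. GA3ox then adds the hydroxyl group that makes the hormone active, GA2ox inactivates it, GID is the soluble receptor, and DELLA is the nuclear repressor of growth that is degraded when the receptor has bound the hormone. In angiosperms GA20ox is known as a step at which the pathway's output is set and whose transcript falls when active hormone is plentiful.

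A level is given as log2 of the transcript relative to the control gene TIF, that is the TIF threshold cycle (Ct) minus the GA20ox Ct. Levels nearer to 0 mean more transcript, and 1 unit stands for a doubling when every cycle doubles the product. Differences between levels are given on the same log2 scale or as folds. GA20ox averaged -8.32 ± 0.62 (SD, n = 69 seedlings). The lowest seedling had -9.86, the median seedling -8.26 and the highest -7.25. Lowest and highest were 6.10-fold apart, and the middle of the distribution, from the lower to the upper quartile, spanned 1.94-fold. If both primer pairs doubled their product in each cycle, the mean corresponded to 3.14 GA20ox transcripts for every 1000 of TIF.

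Scatter among the wells of 1 set was narrow beside this spread. GA20ox wells crossed the threshold between 27.3 and 31.9 cycles when 1 discordant well was set aside, and the TIF wells between 18.9 and 23.1 cycles. The SD among a seedling's 3 GA20ox wells had a median of 0.150 cycles, and 3 seedlings exceeded 0.5. Pooled without 754_OP repetition 1, the seedling with the discordant well, the well SD was 0.209 for GA20ox. For TIF it was 0.0970, pooled over all seedlings. Together these put a standard error of 0.133 on a seedling's level and 4.59% of the variance among seedlings. The last well matched the average of its companions to within 0.0001 cycles in 13 of 69 seedlings, so these well SDs may be too small. They also leave out differences between sets of wells. TIF was read in a second set too, with GID and DELLA. The first set's TIF Ct minus the second's ran from -1.03 in 754_PM repetition 2 to 1.71 in 138_PM repetition 1. In 754_OP repetition 1 the last GA20ox well read 20.3 cycles against 28.9 in both others, and the TIF Ct of this seedling was 20.3. The deposited level of that seedling, -8.60, stood beside -8.62 from its first 2 wells alone.

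Family means of GA20ox ran from -8.90 ± 0.63 (SD, n = 3 seedlings) in 754*966_CC to -7.64 ± 0.19 (n = 3) in 927*991_CC, a 2.41-fold range. Both ends of the order were controlled crosses. In 19 of 19 neighbouring pairs of the order the gap was under the smaller of both SDs and the seedlings overlapped. The largest gap was 0.18. Neighbours in an order by mean lie close by construction, so these gaps cannot show whether families differ. The families at the ends, picked as extremes, did not overlap, with -9.34 to -8.18 in 754*966_CC and -7.83 to -7.46 in 927*991_CC. In 16 of 20 families 1 or more seedlings lay above the mean of all 69 and 1 or more below it. The exceptions were 3 families wholly above it and 1 family, 96_OP, wholly below it.

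**Figure D1:**
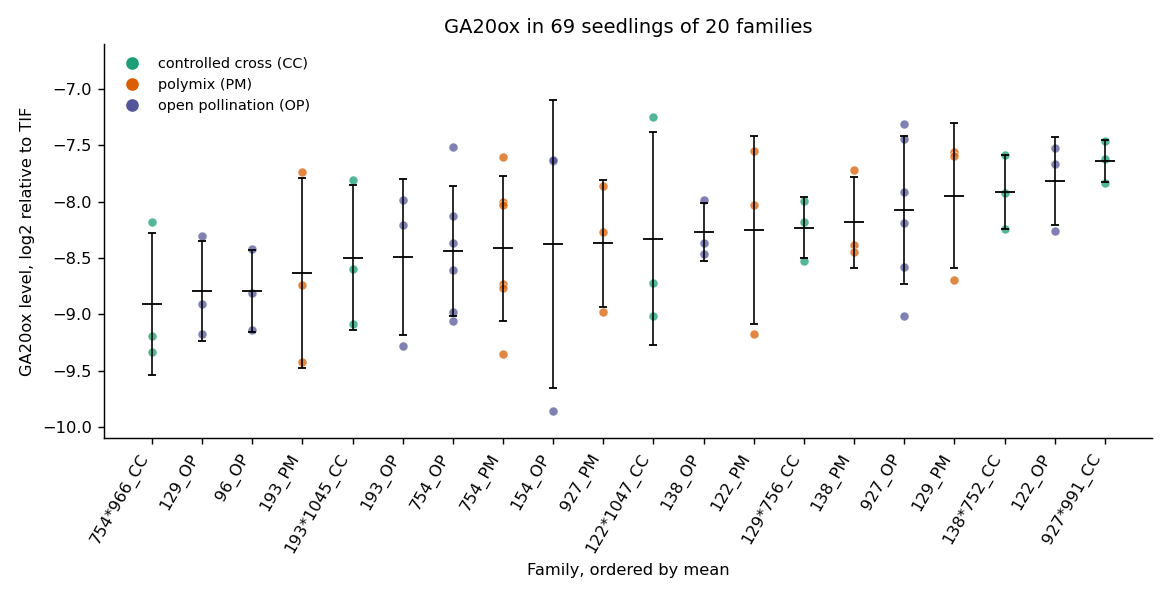
GA20ox level (vertical axis, log2 relative to TIF) in 69 seedlings of 20 families (horizontal axis, ordered by family mean), with points for seedlings coloured by breeding strategy, a horizontal dash for the family mean and bars of 1 SD among seedlings. Family means rise from -8.90 to -7.64, while the bars of every pair of neighbours overlap and the 154_OP seedlings span from -9.86 to -7.63.

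The 6 trees with a family of each strategy show the same gene in related backgrounds. In tree 122 the order was OP, PM, CC from high to low. Its OP seedlings had -7.52, -8.26 and -7.66, a mean of -7.82 ± 0.39 (SD, n = 3). Its PM seedlings had -8.03, -7.55 and -9.18, a mean of -8.25 ± 0.83. Its cross 122*1047_CC held the highest seedling of the series, at -7.25, beside -8.72 and -9.02, a mean of -8.33 ± 0.95. The 3 families overlapped, and the cross alone spanned most of the tree's range.

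Tree 129 ran the other way, with OP lowest. Its OP seedlings had -9.17, -8.91 and -8.30, a mean of -8.79 ± 0.45 (SD, n = 3). Its PM seedlings had -7.56, -8.69 and -7.60, a mean of -7.95 ± 0.64. Its cross 129*756_CC had -8.18, -7.99 and -8.53, a mean of -8.23 ± 0.27. The lowest PM seedling lay inside the OP range, and the mean of the cross lay between both.

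Tree 138 varied little. Its OP seedlings had -7.98, -8.37 and -8.46, a mean of -8.27 ± 0.26 (SD, n = 3). Its PM seedlings had -8.38, -8.44 and -7.72, a mean of -8.18 ± 0.40. Its cross 138*752_CC had -7.59, -7.92 and -8.24, a mean of -7.91 ± 0.33. All 3 families of this tree overlapped.

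In tree 193 the 3 families had nearly the same mean and a wide spread within each. Its OP seedlings had -8.21, -9.28 and -7.99, a mean of -8.49 ± 0.69 (SD, n = 3). Its PM seedlings had -8.74, -9.42 and -7.74, a mean of -8.63 ± 0.85. Its cross 193*1045_CC had -7.81, -9.08 and -8.59, a mean of -8.50 ± 0.64. Each family covered over 1 cycle, and repetition 2 was the lowest seedling in all 3.

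Tree 754 had the lowest cross. Its OP title held 6 seedlings, at -8.60, -8.13, -8.97, -9.06, -7.51 and -8.37, with a mean of -8.44 ± 0.58 (SD, n = 6). Its PM title held -9.35, -8.00, -8.73, -7.60, -8.76 and -8.03, with a mean of -8.41 ± 0.64 (n = 6). The cross 754*966_CC had -9.34, -8.18 and -9.19, a mean of -8.90 ± 0.63 (n = 3). Of the cross, 2 seedlings lay below every OP seedling and 1 lay among them.

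Tree 927 had the highest cross. Its 6 OP seedlings had -9.02, -7.91, -8.19, -7.31, -7.44 and -8.58, a mean of -8.07 ± 0.66 (SD, n = 6). Its PM seedlings had -8.97, -7.86 and -8.27, a mean of -8.37 ± 0.56 (n = 3). The cross 927*991_CC had -7.83, -7.46 and -7.62, a mean of -7.64 ± 0.19, the narrowest family of the 20. Its seedlings lay above all PM seedlings of the tree but inside the OP range.

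The 2 remaining families were open-pollinated. Family 96_OP had -9.14, -8.42 and -8.81, a mean of -8.79 ± 0.36 (SD, n = 3). Family 154_OP had -7.64, -9.86 and -7.63, a mean of -8.38 ± 1.28, the widest family of the series. Its repetition 2 was the lowest seedling of all 69, and its other seedlings were among the higher ones.

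**Figure D2:**
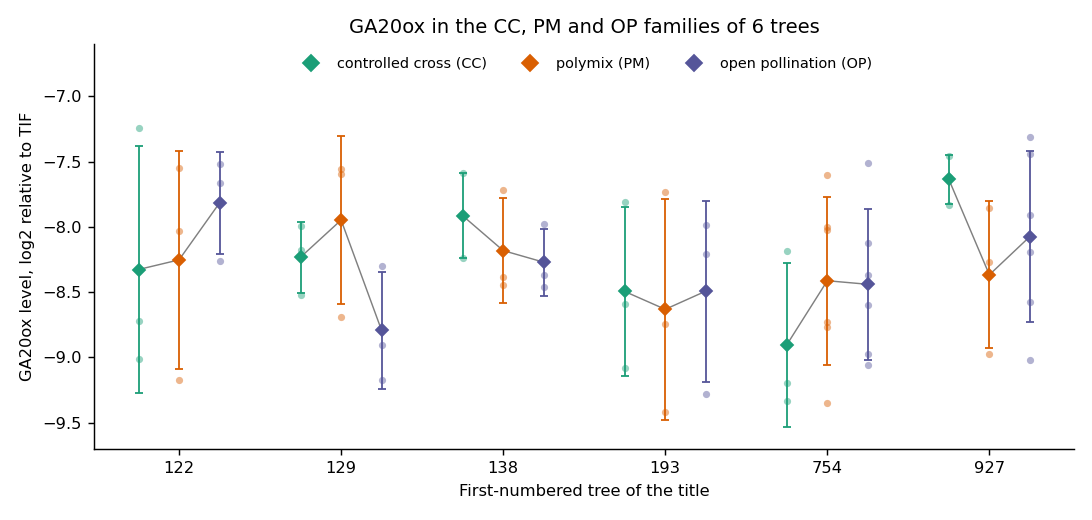
GA20ox level (vertical axis, log2 relative to TIF) for the CC, PM and OP families of the 6 first-numbered trees (horizontal axis), with points for seedlings, diamonds for family means, bars of 1 SD and grey lines joining the families of a tree. The cross is the highest family in trees 138 and 927 and the lowest in trees 122 and 754, so the lines slope in both directions.

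Whether GA20ox differed between breeding strategies was tested on family means, since the strategy belongs to the family. Crosses had -8.25 ± 0.44 (SD, n = 6 families), with family means from -8.90 through a median of -8.28 to -7.64. Polymix families had -8.30 ± 0.23 (n = 6), from -8.63 through -8.31 to -7.95. Open-pollinated families had -8.38 ± 0.33 (n = 8), from -8.79 through -8.41 to -7.82. The 3 ranges overlapped almost wholly, and the 10 lowest families held 2 CC, 3 PM and 5 OP families.

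None of the 3 contrasts of GA20ox passed the test. CC exceeded OP by 0.13 ± 0.22 (SE), 1.09-fold with a 95% interval of 0.798 to 1.49 (exact two-sided permutation p = 0.538, Benjamini-Hochberg adjusted over 15 gene contrasts 0.830). PM exceeded OP by 0.08 ± 0.15, 1.06-fold with an interval of 0.832 to 1.35 (exact p = 0.609, adjusted 0.830). CC exceeded PM by 0.05 ± 0.20, 1.03-fold with an interval of 0.753 to 1.42 (exact p = 0.823, adjusted 0.905). For CC against OP the interval takes in a level as low as 0.798 of OP and one as high as 1.49-fold, so smaller shifts in either direction were not resolved with these families. Of the 15 contrasts of 5 genes, 0 had an adjusted p under 0.05 and 3 an unadjusted one, and GA20ox accounted for none of those.

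Paired by tree, the mean differences were close to 0, and the trees moved in opposite directions. CC minus OP was -0.51 in tree 122, 0.56 in 129, 0.36 in 138, -0.00 in 193, -0.46 in 754 and 0.44 in 927. PM minus OP was -0.44, 0.85, 0.09, -0.14, 0.03 and -0.29 in the same order. In each of the 3 contrasts 3 trees were higher and 3 lower, and seedlings of both families overlapped in every tree except for CC over PM in 927. The paired means were 0.06 for CC minus OP (exact sign-flip permutation p = 0.812), 0.02 for PM minus OP (exact p = 0.938) and 0.05 for CC minus PM (exact p = 0.812), where 6 pairs allow no p under 0.0312.

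**Figure D3:**
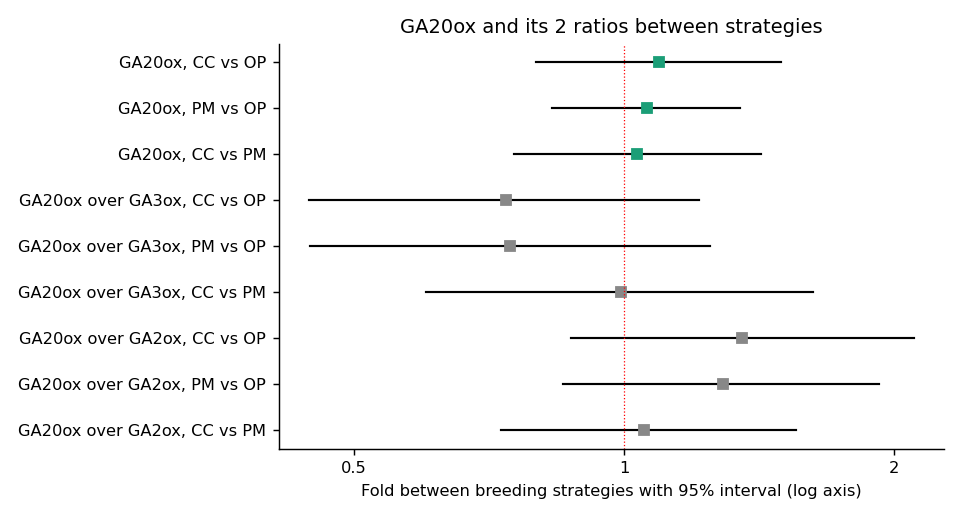
Fold between breeding strategies (horizontal axis, log scale) for GA20ox in green and for its ratios to GA3ox and GA2ox in grey, with squares for the difference of family means and lines for the 95% interval. All 9 intervals cross 1, from 0.798 to 1.49 for GA20ox in CC against OP to 0.446 to 1.21 for GA20ox over GA3ox in the same contrast.

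No difference in GA20ox between families was detected over the spread of seedlings within them. The F ratio between 20 families was 0.853 on 19 and 49 degrees of freedom (permutation p = 0.638, adjusted over 5 genes 0.835), and the intraclass correlation was -0.04. The SD of family means, 0.33, stood beside 0.34 for means of as many seedlings with no family effect, given the within-family SD of 0.63. Seedlings of 1 family differed by 1.29-fold to 4.67-fold from lowest to highest, with a median of 2.21-fold, and in 12 families they lay over 1 cycle apart. Within-family SDs were 0.57 in CC, 0.67 in PM and 0.65 in OP.

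The first-numbered trees had GA20ox means over their 3 families of -8.03 ± 0.37 in 927, -8.12 ± 0.19 in 138, -8.13 ± 0.28 in 122, -8.32 ± 0.43 in 129, -8.54 ± 0.08 in 193 and -8.59 ± 0.28 in 754 (SD, n = 3 families). The tree effect beside strategy had F = 1.62 on 5 and 10 degrees of freedom (permutation p = 0.241, adjusted over 5 genes 0.473). This value moved with each repetition left out. F was 4.65 without repetition 1 (permutation p = 0.0105, adjusted 0.0525), with trees 927 at -7.83 and 193 at -8.68 as the ends. It was 0.989 without repetition 2 and 1.06 without repetition 3. The interaction of tree and strategy had F = 0.877 on 10 and 45 degrees of freedom (permutation p = 0.563, adjusted 0.921).

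The 3 titles with 6 seedlings allow GA20ox to be compared between repetitions 1 to 3 and 4 to 6 of 1 label. The later repetitions exceeded the earlier ones by 0.26 in 754_OP (exact permutation p = 0.7), by 0.56 in 754_PM (exact p = 0.5) and by 0.60 in 927_OP (exact p = 0.3). The direction was the same in all 3 titles, but the seedlings overlapped in each, and 3 against 3 allows no p under 0.1.

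Because the 3 oxidases were read against the same TIF wells, their ratios do not depend on the control gene. GA20ox exceeded GA3ox, the enzyme that acts on its product, in 65 of 69 seedlings as a value relative to TIF, though transcripts of different primer pairs are compared here. The log2 ratio had a lowest value of -2.36, a median of 1.97 and a highest value of 5.18. Family means of this ratio were 1.68 ± 0.54 in CC (SD, n = 6), 1.69 ± 0.58 in PM (n = 6) and 2.12 ± 0.65 in OP (n = 8).

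The GA20ox to GA3ox ratio was lower in CC than in OP by a factor of 0.739 (95% interval 0.446 to 1.21, exact permutation p = 0.210, adjusted over 6 ratio contrasts 0.344). PM stood at 0.746 of OP (0.446 to 1.25, exact p = 0.229, adjusted 0.344) and CC at 0.991 of PM (0.601 to 1.62, exact p = 0.972). None of these passed the test. Split by the sample numbers of the titles at the points where the control wells shifted, CC lay below OP by a log2 difference of -0.34 among samples 1 to 24 and of -1.77 among samples 33 to 56, and PM minus OP gave -1.04 and -1.42. The smaller series between and after these gave 0.35, 0.86 and -0.35 for CC minus OP and 0.51, 1.43 and 0.02 for PM minus OP, so the direction was not shared by all series.

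The seedling 154_OP repetition 2 joined the lowest GA20ox of the series, -9.86, to the highest GA3ox, -7.50. Its GA20ox wells read 31.5, 31.9 and 31.3 cycles and its GA3ox wells 29.3, 29.0 and 29.3, so the wells of each gene were close to each other. It gave the lowest ratio, -2.36, followed by -1.20 in 754_PM repetition 3, -1.01 in 122*1047_CC repetition 2 and -0.08 in 754*966_CC repetition 1. Without this 1 seedling the log2 ratio difference moved from -0.44 to -0.67 for CC minus OP (exact permutation p = 0.0733, adjusted 0.250) and from -0.42 to -0.66 for PM minus OP (exact p = 0.0833, adjusted 0.250). GA20ox itself then differed by 0.04 for CC minus OP and by -0.01 for PM minus OP. Its GA3ox level of -7.50 lay beside the GA20ox levels of the other 154_OP seedlings, -7.64 and -7.63, whose GA3ox levels were -11.00 and -10.73. Whether the wells of both genes were exchanged in this seedling was not tested, and its place as the lowest seedling and the width of its family rest on the wells as labelled.

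GA2ox, which removes active hormone and its precursors, lay closer to GA20ox. The log2 ratio of GA20ox to GA2ox was above 0 in 44 of 69 seedlings, with a median of 0.23, a lowest value of -1.66 and a highest of 2.40. Its family means were 0.56 ± 0.49 in CC, 0.49 ± 0.36 in PM and 0.12 ± 0.57 in OP. CC stood at 1.35 of OP (95% interval 0.873 to 2.10, exact permutation p = 0.162, adjusted 0.344), PM at 1.29 of OP (0.854 to 1.92, exact p = 0.196, adjusted 0.344) and CC at 1.05 of PM (0.730 to 1.55, exact p = 0.775, adjusted 0.930). None passed the test. Within samples 1 to 24 and 33 to 56 the log2 difference of CC minus OP was 0.19 and 0.07, and in the smaller series it was 1.11, 1.47 and -1.17. For PM minus OP the 5 values, in order of sample number, were -0.20, 0.00222, 0.74, 0.55 and -0.49.

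Likeness of GA20ox to the other genes was measured as Pearson's r over 20 family means, with Benjamini-Hochberg adjustment over 10 pairs of genes. DELLA came first, with r = 0.34 (permutation p = 0.147, adjusted 0.367) and Spearman's rho = 0.22 (permutation p = 0.347). When 754*966_CC and 927*991_CC, the 2 families farthest from the GA20ox median, were left out, r was -0.04. The relation rested on 927*991_CC, since r was 0.01 without that family alone and 0.32 without 754*966_CC alone. DELLA in 927*991_CC was the highest of 20 families, at -4.32, from seedlings at -5.56, -5.19 and -2.22, the last with DELLA wells at 20.9 and 27.3 cycles.

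GA3ox followed with r = 0.04 (permutation p = 0.855) and rho = 0.11 (permutation p = 0.651). GA2ox had r = -0.14 (permutation p = 0.545, adjusted 0.682) and rho = -0.25 (permutation p = 0.278). Without the same 2 families GA2ox had r = -0.49 (permutation p = 0.0382, adjusted 0.141). GID had r = -0.17 (permutation p = 0.472, adjusted 0.674) and rho = -0.08 (permutation p = 0.747). Over all 20 families no gene's means followed those of GA20ox beyond what permutation gave. Over single seedlings r was -0.06 with GA3ox, 0.08 with GA2ox, -0.17 with GID and 0.17 with DELLA, where GA20ox shares its TIF wells with GA3ox and GA2ox but not with GID and DELLA.

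**Figure D4:**
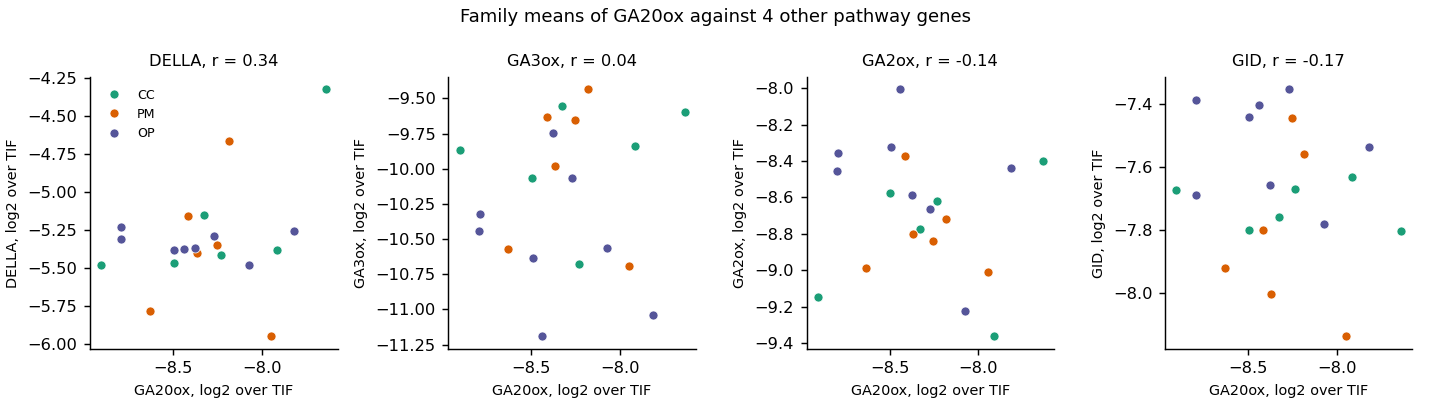
Family means of GA20ox (horizontal axes, log2 relative to TIF) against those of DELLA, GA3ox, GA2ox and GID (vertical axes, same scale of units), with 1 point for each of 20 families coloured by strategy. The clouds have no common slope, with r of 0.34, 0.04, -0.14 and -0.17, and the DELLA panel has 1 cross at the upper right, at -7.64 for GA20ox and -4.32 for DELLA.

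Of the families at the ends of the GA20ox order, 927*991_CC was at the same end for DELLA, and neither was at an end for GA3ox, GA2ox or GID. The lowest, 754*966_CC, ranked 13 of 20 from the bottom for GA3ox (-9.87), 3 for GA2ox (-9.15), 10 for GID (-7.67) and 3 for DELLA (-5.48). The highest, 927*991_CC, ranked 18 for GA3ox (-9.59), 16 for GA2ox (-8.40), 4 for GID (-7.80) and 20 for DELLA (-4.32), the last through the seedling with discordant DELLA wells. The highest seedling, 122*1047_CC repetition 3, was also high in the other genes, with rank 59 of 69 for GA3ox, 67 for GA2ox, 63 for GID and 64 for DELLA. The seedlings next below it in GA20ox did not share this. In the same order of genes, 927_OP repetition 4 ranked 11, 39, 9 and 3, and 927_OP repetition 5 ranked 63, 18, 1 and 5.

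Samples were numbered from 1 to 69 in the titles, and the offset between both sets of TIF wells changed at samples 24, 32, 56 and 64, which gives 5 series. No label says what these series are. GA20ox averaged -8.28 ± 0.64 (SD, n = 24) in samples 1 to 24, -8.50 ± 0.52 (n = 8) in 25 to 32, -8.35 ± 0.61 (n = 24) in 33 to 56, -8.37 ± 0.83 (n = 8) in 57 to 64 and -7.92 ± 0.41 (n = 5) in the last series. These ranges overlapped, and series beside family had F = 0.854 for GA20ox (permutation p = 0.548) against 4.63 for GA2ox (permutation p = 0.000890). The mean TIF Ct rose over the series, with 20.3, 21.0, 21.3, 21.4 and 21.9 cycles.

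Over all 69 seedlings GA20ox had r = 0.10 with the sample number (permutation p = 0.415, adjusted over 5 genes 0.572), rho = 0.09 (permutation p = 0.438) and r = 0.06 without the 2 farthest samples. Within samples 1 to 24 r was 0.34 (permutation p = 0.108), and within 33 to 56 it was 0.13 (permutation p = 0.539). GA20ox had r = 0.13 with the TIF Ct (permutation p = 0.301, adjusted 0.502), rho = 0.11 (permutation p = 0.381) and r = 0.09 without the 2 farthest samples, although that Ct enters the level. It was 0.22 within samples 1 to 24 and 0.10 within 33 to 56.

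The contrasts of GA20ox changed direction between series. CC minus OP was -0.03, 0.55, -0.18, 1.16 and -0.47 over the 5 series in order. PM minus OP was -0.19, -0.19, 0.19, 0.44 and -0.25. CC minus PM was 0.16, 0.75, -0.37, 0.72 and -0.23. No strategy was higher throughout, and the small series hold 1 to 5 seedlings of a strategy each.

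**Figure D5:**
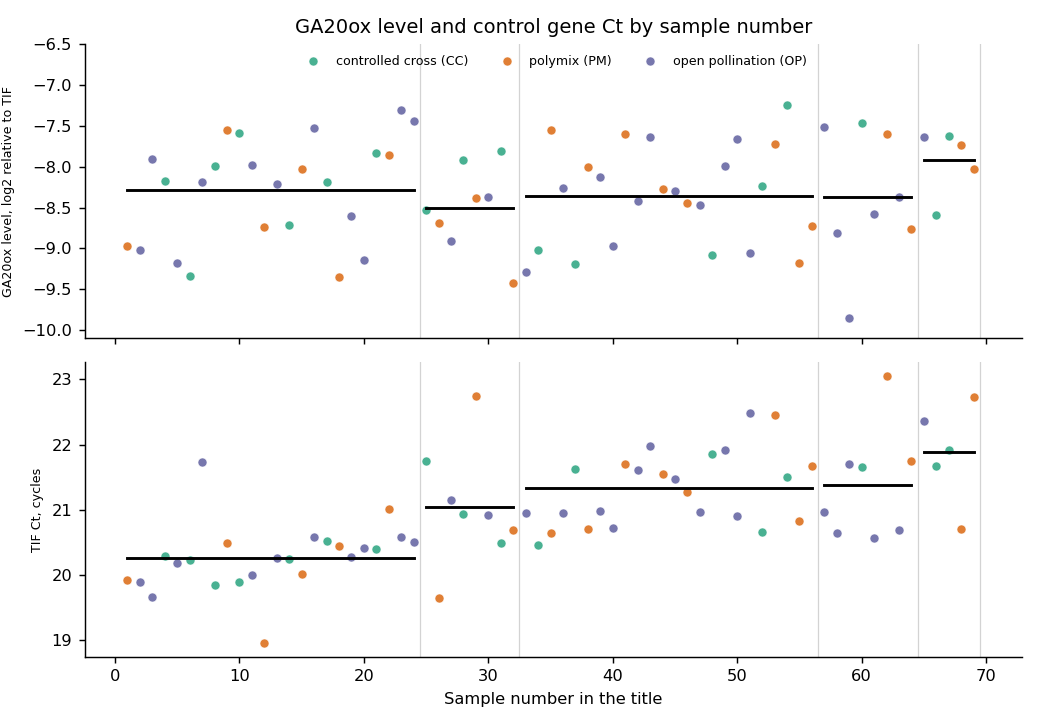
GA20ox level (upper panel, log2 relative to TIF) and TIF Ct (lower panel, cycles) against the sample number of the title (horizontal axis), with points for seedlings coloured by strategy, horizontal lines for the mean of each of the 5 series and grey vertical lines between series. The TIF Ct steps from a mean of 20.3 to 21.9 across series while the GA20ox means stay between -8.50 and -7.92.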

How the data were processed

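The authors deposited threshold cycle (Ct) scores per well for 69 seedlings, 3 for each oxidase gene and TIF and 2 for DELLA, GID and a second TIF set. They also deposited log2 values, the mean target Ct less the mean Ct of the TIF wells run with that target. For GA20ox, 63 seedlings equalled this rule within 0.001 cycles, 4 equalled a reference of all TIF wells, and 2 neither. Those 2 differed from the rule by 2.85 cycles in 754_OP repetition 1, which has the discordant well, and by -0.0264 in 193_PM repetition 3. Among the 4, the difference from the rule reached 0.0894, in 154_OP repetition 3. Per the labels' protocols, cDNA came from 0.5 µg RNA and reactions held 50 ng cDNA and 300 nM primer over 40 cycles. No source used here gives efficiency, threshold setting or software. The design text speaks of pooled RNA, and no value set against a pool was found.

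The sign was turned, nothing was filtered or imputed, and 0 columns belonged to samples outside the series. Seedlings were averaged per family title, the replicate. Nothing in the labels separates seed lots, so p-values cover only the spread among families as sampled. Contrasts used exact two-sided permutation of family means with 95% intervals by inversion, adjusted by Benjamini-Hochberg over 15 gene or 6 ratio contrasts at 0.05. F ratios and correlations used 100000 permutations (one-sided and two-sided). The contrast CC minus OP and the F ratio between families were tried on simulated data, and the other tests were not. Python 3.11.15, numpy 2.4.6, scipy 1.17.1 and pandas 2.3.3 were used. Precision is limited by wells and seedlings, since PCR cycles give no counting depth.

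GA20ox was the gene given; the other 4 genes are all named, ordered by r, with all families of the 6 trees and the extreme families, seedlings and wells. Members, genes, series breaks and tests were chosen with earlier results of these data known. No label says that repetition numbers mark a shared block or batch. The repetition term beside family had F = 0.564 for GA20ox (permutation p = 0.575) and F = 4.35 for GA2ox (permutation p = 0.0208, unadjusted). Alternatives were other references, well summaries, scales, family definitions, blocks and left-out seedlings, families, trees or repetitions. Leaving out 154_OP repetition 2, or the last well of 754_OP repetition 1 (also with other references), was chosen after seeing the data. So was leaving out 1 tree at a time for the tree effect. No sequence was used.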

Additional observations from a re-analysis of the deposited data

How the results depend on the processing

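Of 344 alternative values for 17 results, 300 kept direction and side of the threshold and 42 reversed. Adjusted p fell under 0.05 in 8, all correlations of sign-turned Ct without the control gene. Higher values of sign-turned Ct mean more transcript. No alternative gave a GA20ox contrast an unadjusted exact p under 0.207 (CC minus OP), 0.259 (PM minus OP) or 0.331 (CC minus PM). With all control wells as reference, CC minus OP was -0.0208 and PM minus OP -0.0838, which also take in the discordant well of 754_OP repetition 1. Without that well they were 0.0390 and -0.0240. Without the control gene, PM minus OP of the sign-turned Ct was -0.0299, or 0.0299 without that well. By permutation, r was then 0.611 with GA2ox (adjusted p = 0.00960), 0.776 with GID (0.000900), 0.670 with DELLA (0.00400) and -0.502 with sample number (0.0001), and without that well 0.554, 0.769, 0.696 and -0.506. Without values of well SD over 0.5, CC minus PM was -0.0266, or 0.0176 for the GA3ox ratio and -0.0784 for the GA2ox ratio, and r with DELLA was -0.128. With titles of 6 seedlings as 2 families the GA3ox ratio of CC minus PM was 0.0557. With repetition as a replicate block GA20ox gave 0.19 (CC minus OP), 0.10 (PM minus OP) and 0.09 (CC minus PM), the GA3ox ratio of CC minus PM 0.0629 and r with sample number -0.0238. The block gave 0.47, 0.37 and 0.09 for the GA2ox ratio in the same 3 contrasts, and changed no call. With series as a term, the GA2ox ratio of CC minus PM was -0.00176 and r with GA3ox -0.0345. That r was -0.0900 when recomputed from Ct (0.05 without the discordant well) and -0.0327 without the 2 farthest families, where r with DELLA was -0.0446. Leaving out 1 repetition, family or seedling gave -0.00560 to 0.261 (CC minus OP), -0.0302 to 0.166 (PM minus OP) and -0.0754 to 0.178 (CC minus PM); GA3ox ratios of -0.848 to 0.0262 (PM minus OP) and -0.285 to 0.183 (CC minus PM); a GA2ox ratio of -0.293 to 0.532 (CC minus PM); and r of -0.137 to 0.210 with GA3ox, -0.321 to 0.0795 with GA2ox, 0.0103 to 0.522 with DELLA and -0.00862 to 0.197 with sample number. Without repetition 3 the GA2ox ratio of CC minus OP was 0.80 (exact p = 0.0243, adjusted 0.146). The causes were not tested. Precision is limited by 3 to 6 seedlings a family and by a control gene measured in wells of its own.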

Other observations

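The second set of control wells, which the GA20ox levels above do not use except in a few seedlings, shifted against the first. The TIF Ct of the first set minus that of the second averaged -0.50 cycles in samples 1 to 24, 0.72 in 25 to 32, -0.55 in 33 to 56, 0.41 in 57 to 64 and 0.02 in the last series. GA20ox was read against the first set in 63 of 69 seedlings. Read against all TIF wells its PM minus OP difference was -0.02 in place of 0.08, once the discordant last well of 754_OP repetition 1 was set aside. GA20ox Ct without any control gene averaged 28.4 in samples 1 to 24 and 29.5 to 29.8 in the later series.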
